A study of Mus musculus with 8 samples.

Results

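The immediate early genes described here are the 10 genes Fos, Fosb, Fosl1, Fosl2, Jun, Junb, Jund, Egr1, Atf3 and Btg2, measured in cultured stromal cells from the subcutaneous fat of male C57BL/6 mice. They were chosen by symbol: array probes were matched to them through the transcript accession of each probe, which gave 15 of 56413 probes. All 10 genes passed the filter on dim probes, among 29584 genes tested. The cells came from 4 groups with 2 arrays each. HF24 mice received a diet with 60% fat for 24 weeks, C24 mice control chow for 24 weeks, HF12 mice the 60% fat diet for 12 weeks and C12 mice control chow for 12 weeks. All mice were 6 weeks old at the start, and the sample titles call the 24-week groups old and the 12-week groups young. Feeding time and age of the mice therefore cannot be told apart. Neither a transgene nor a further treatment is given in the labels. The cells were those that adhered to plastic after collagenase digestion of abdominal subcutaneous fat and 2 or 3 passages, so the RNA is that of cultured cells and not of the tissue. Nothing in the labels ties the 2 arrays of a group to different mice or dishes. The p-values therefore weigh changes against array-to-array spread alone, and that spread may be only technical.

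Immediate early genes are transcribed within minutes of a growth factor, cytokine or stress signal without new protein synthesis, and their short-lived mRNAs fall again soon after. Fos and Jun family proteins pair through leucine zippers to form AP-1, a transcription factor that binds the element TGANTCA. FOS and FOSB are strong activators, whereas the FOS-related antigens FRA1 (Fosl1) and FRA2 (Fosl2) lack that activation domain and often replace FOS when signals persist. JUN promotes and JUND slows cell division in fibroblasts, and JUNB can oppose JUN. EGR1 is a zinc finger transcription factor switched on by ERK signalling and serum response factor, ATF3 is a stress-induced relative of FOS and JUN that often represses, and BTG2 is an antiproliferative protein that recruits mRNA deadenylases. In fat, AP-1 and EGR1 act early in the response of stromal cells to adipogenic and inflammatory stimuli.

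Promoter sequences were available for 8 of the 10 genes, from RefSeq (GRCm38.p6), each from 250 bases before to 50 bases after the annotated start. Both strands were searched for an AP-1 site (TGANTCA), a cyclic AMP response element (TGACGTCA) and an EGR site (GCGNGGGCG). TATAAA and the serum response element core known as the CArG box were also searched for. A CArG box can contain TATAAA, but no matches overlapped in these windows. The 4 promoters printed here are those of Fos, Fosb, Fosl2 and Btg2. Fos was higher with the high-fat diet at 12 weeks and lower with it at 24 weeks. Fosb, Fosl2 and Btg2 reached their highest mean in C24 and hold an EGR site. Fos and Junb also reached their highest mean in C24, and their windows hold no EGR site. Capitals mark the matches.
Fos, chr12:85473640-85473939, plus strand: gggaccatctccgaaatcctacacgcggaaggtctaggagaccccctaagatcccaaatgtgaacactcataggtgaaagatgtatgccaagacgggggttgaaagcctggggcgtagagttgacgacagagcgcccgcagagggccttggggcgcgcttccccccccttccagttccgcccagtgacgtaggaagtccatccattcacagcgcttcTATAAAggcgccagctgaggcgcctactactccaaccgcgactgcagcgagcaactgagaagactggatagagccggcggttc
Fosb, chr7:19309996-19310295, minus strand: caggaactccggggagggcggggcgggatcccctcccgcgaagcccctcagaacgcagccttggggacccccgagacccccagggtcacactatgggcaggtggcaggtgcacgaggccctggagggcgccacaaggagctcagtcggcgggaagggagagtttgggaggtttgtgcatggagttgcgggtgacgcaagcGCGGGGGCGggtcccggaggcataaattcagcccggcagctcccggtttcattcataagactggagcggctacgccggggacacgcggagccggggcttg
Fosl2, chr5:32136222-32136521, plus strand: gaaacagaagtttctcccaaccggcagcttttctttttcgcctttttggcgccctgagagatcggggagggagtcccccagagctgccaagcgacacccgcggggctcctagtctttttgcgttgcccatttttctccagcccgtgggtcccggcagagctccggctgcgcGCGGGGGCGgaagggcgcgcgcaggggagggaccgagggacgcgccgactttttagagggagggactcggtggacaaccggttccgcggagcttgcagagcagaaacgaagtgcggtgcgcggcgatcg
Btg2, chr1:134079106-134079405, minus strand: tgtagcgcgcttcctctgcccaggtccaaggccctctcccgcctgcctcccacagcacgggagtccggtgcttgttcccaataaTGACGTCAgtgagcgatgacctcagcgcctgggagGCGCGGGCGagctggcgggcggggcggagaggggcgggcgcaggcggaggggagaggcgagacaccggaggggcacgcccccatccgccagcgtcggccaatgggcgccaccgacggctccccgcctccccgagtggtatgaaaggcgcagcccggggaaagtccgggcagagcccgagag
Fos holds TATAAA from 33 to 28 bases before its start. Btg2 holds a cyclic AMP response element from 166 to 159 bases before its start and an EGR site from 131 to 123 bases before it. The EGR sites of Fosl2 and Fosb begin 79 and 50 bases before their starts. An EGR site was present in 3 of the 8 promoters of these genes, against 5.55% of 32851 mouse promoters of the same length. The EGR motif is all G and C apart from N, and that share was not matched for GC content. The promoters with the site were 72.0% (Btg2), 68.3% (Fosb) and 64.7% (Fosl2) GC. The others ran from 46.7% (Jund) to 65.3% (Junb). The cyclic AMP response element was present in 1 of 8, against 1.79%, and TATAAA in 2 of 8 (Fos and Junb), against 13.6%. The Junb match does not lie before the start: it runs from the annotated start to 5 bases after it. No exact match to the AP-1 site or CArG box was found in these 8 windows, while 7.81% and 1.63% of all promoters hold one. Sites more than 250 bases before a start were not searched, and no promoter was available for Egr1 or Fosl1. Variants that differ from a motif by a base were not counted for any of the motifs. The absence therefore holds for exact matches in these windows only. A match is a description of the letters and does not show that the factor binds.

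All 8 arrays lay on 1 slide. The 24-week arrays filled slide row 2 and the 12-week arrays row 1, and the high-fat arrays filled columns 3 and 4 and the chow arrays columns 1 and 2. Slide position and feeding time, and slide position and diet, therefore cannot be told apart. The 24-week arrays detected fewer probes above background (57.5% to 62.4%) than the 12-week arrays (65.0% to 67.2%). Correlations across genes, which are not independent replicates, were 0.995 to 0.998 within a group and 0.955 to 0.985 between groups. Mesenchymal stromal markers were detected in every group (10 of 11 genes on the fixed list were measured, and all 10 were well above background on every array). Markers of other cells were present too and differed between groups. The summed level of 14 macrophage markers, in multiples of the array's 75th percentile, was 192 to 196 in HF24, 98.0 to 102 in C24, 246 in HF12 and 45.4 to 46.1 in C12. Of these markers the fractalkine receptor gene Cx3cr1 was not above background in C24 and C12. Bulk RNA cannot tell fewer cells of a type from less RNA per cell.

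Every level below is the log2 processed intensity of the probe minus the 75th percentile of its array, so that 0 is that percentile and 1 unit is a 2-fold difference. Log2 changes are differences of these levels, ± the standard error from limma with 2 arrays per group, and a change passed when its Benjamini-Hochberg adjusted p over all genes was under 0.05. Levels of different genes come from different probes and were not set against each other.

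**Figure D1:**
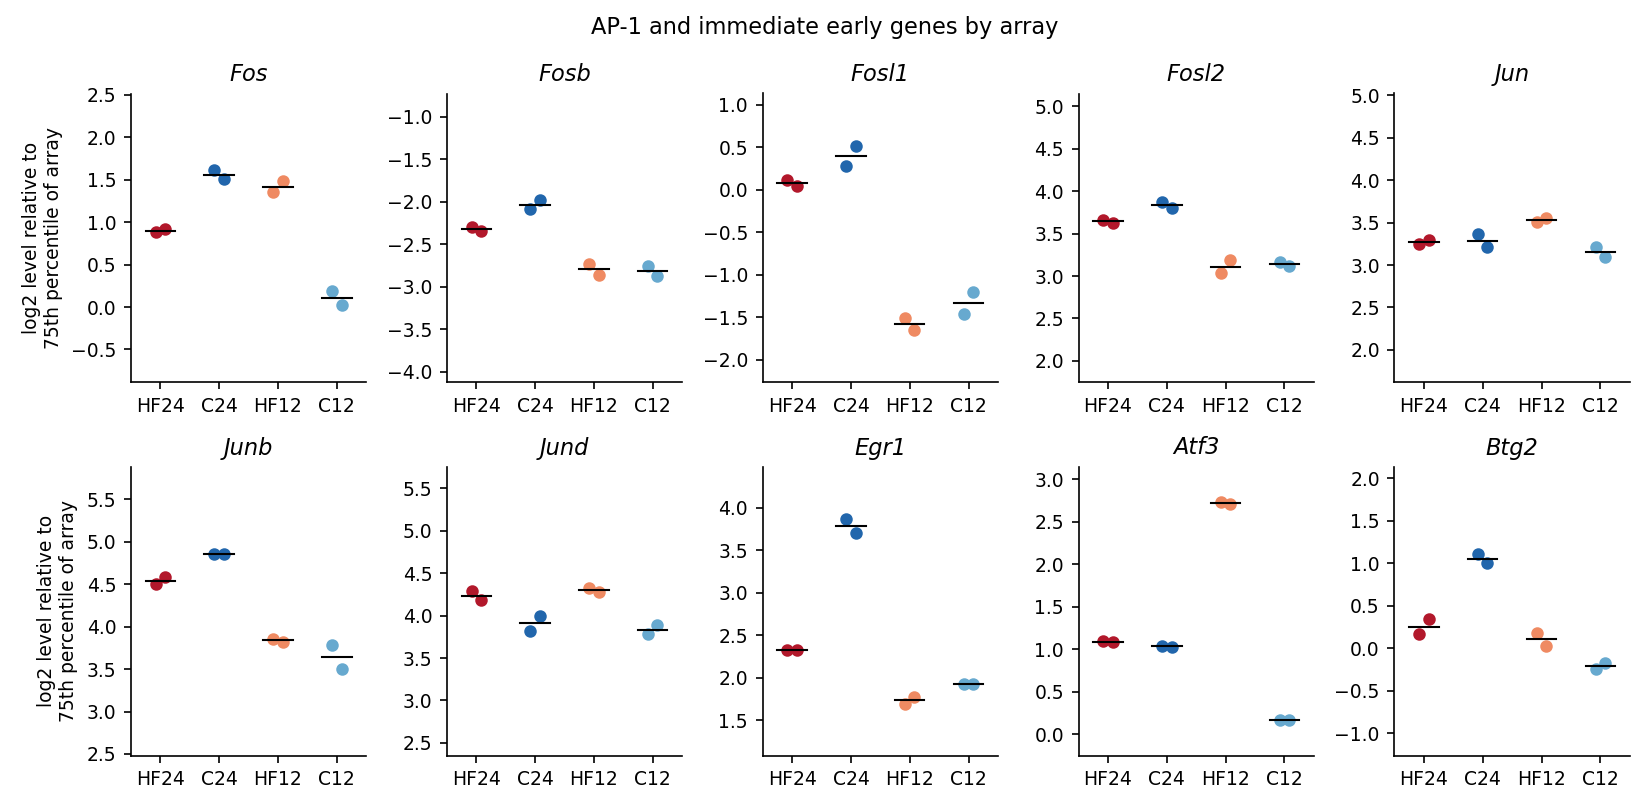
Log2 level of each of the 10 genes relative to the 75th percentile of the array, on each of the 8 arrays; dots are arrays, bars are group means (n = 2), and every panel spans the same height in log2 units. Egr1 and Btg2 stand highest in C24, Atf3 in HF12, and Fosl1 and Junb are higher in the 24-week groups, HF24 and C24, than in the 12-week groups, HF12 and C12.

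The comparison of HF12 with C12 asks which of these genes differed with diet after the shorter feeding. Atf3 and Fos were higher on the high-fat diet by several times the spread between arrays, and Jun and Jund by small amounts. Of the 10 genes, 4 passed, all of them higher, against 31.3% of all genes tested in either direction (13.7% higher and 17.6% lower). Their median change was 0.25, against -0.03 over all genes. Atf3, the stress-induced repressor, had the largest difference among the 10 genes. Its levels were 1.09 and 1.08 in HF24, 1.04 and 1.03 in C24, 2.73 and 2.71 in HF12, and 0.16 and 0.17 in C12. HF12 stood far above the other 3 groups and C12 below them, and no groups overlapped. The change in HF12 against C12 was 2.55 ± 0.05, or 5.88-fold (adjusted p = 1.95e-06).

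Fos had levels of 0.88 and 0.92 in HF24, 1.61 and 1.51 in C24, 1.35 and 1.48 in HF12, and 0.19 and 0.02 in C12. C12 was the low group, and the C24 and HF12 arrays lay next to each other without overlap. Fos was 2.47-fold higher in HF12 than in C12 (1.31 ± 0.08, adjusted p = 1.45e-04). Jun, its main partner, had levels of 3.25 and 3.29 in HF24, 3.36 and 3.21 in C24, 3.51 and 3.55 in HF12, and 3.21 and 3.09 in C12. Its groups spanned 1.30-fold in all, with HF12 alone above the rest. The change of 0.38 ± 0.08 passed (adjusted p = 0.0132), and was lost without C12 replicate 2 (0.0533), HF12 replicate 1 (0.0573) or HF12 replicate 2 (0.0719). Jund levels were 4.29 and 4.18 in HF24, 3.82 and 4.0 in C24, 4.32 and 4.28 in HF12, and 3.78 and 3.89 in C12. Both high-fat groups lay above both chow groups on the probe that stands for the gene. The 12-week change of 0.47 ± 0.09 passed (adjusted p = 0.0103), and was lost without C12 replicate 1 (0.0577) or HF12 replicate 1 (0.0628). Without HF12 replicate 1, 2 of the 10 genes passed, Atf3 and Fos.

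The other 6 genes did not pass between HF12 and C12. Btg2 came closest (0.31 ± 0.09, adjusted p = 0.0503) and passed under 6 of 18 alternatives. Junb changed by 0.20 ± 0.10 (adjusted p = 0.181) on the probe that stands for it and passed without C12 replicate 1 (0.34, adjusted p = 0.0287). Egr1 (-0.19 ± 0.08, adjusted p = 0.105) and Fosl1 (-0.25 ± 0.12, adjusted p = 0.183) had negative changes. Egr1 passed as lower with normexp (-0.22, adjusted p = 0.0417) and with an intensity trend in the variance (adjusted p = 0.042). Fosb (0.02 ± 0.08) and Fosl2 (-0.04 ± 0.07) had changes smaller than their standard errors. The macrophage list moved with Atf3 and Fos in this comparison: 13 of its 14 genes were higher in HF12 than in C12 and none lower, with a median change of 3.72. Of 10 mature adipocyte markers, 9 were lower and none higher (median -2.78), and of 8 endothelial markers 1 was higher and 5 lower (median -0.32). Mesenchymal stromal markers were higher for 1 of 10 and lower for 4 (median -0.1). The part of these cell types in the differences of Atf3 and Fos was not tested.

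The same diet comparison at 24 weeks gave another set of differences. Egr1, Btg2 and Fos were lower on the high-fat diet than on chow, and Atf3 did not pass. Of the 10 genes, 1 was higher and 4 lower, against 33.1% of all genes tested in either direction (12.9% higher and 20.2% lower). The median change was -0.30, against -0.01 over all genes. Egr1 levels were 2.32 and 2.33 in HF24, 3.87 and 3.70 in C24, 1.69 and 1.77 in HF12, and 1.93 and 1.92 in C12. Both C24 arrays stood more than 1 unit above every other array, and no groups overlapped. The change in HF24 against C24 was -1.46 ± 0.08 (adjusted p = 1.47e-04), so that Egr1 was 2.76-fold lower in HF24.

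Btg2, the antiproliferative gene, had levels of 0.17 and 0.34 in HF24, 1.11 and 1.00 in C24, 0.18 and 0.03 in HF12, and -0.24 and -0.17 in C12. C24 was again the high group, while the arrays of HF24 and HF12 overlapped. Btg2 fell by 0.80 ± 0.09 in HF24 against C24, a 1.74-fold difference (adjusted p = 0.00157). Fos fell by 0.66 ± 0.08, a 1.58-fold difference (adjusted p = 0.00231). Atf3 differed by 0.05 ± 0.05 (adjusted p = 0.484), and Jun by -0.01 ± 0.08 (adjusted p = 0.909).

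The calls with smaller changes at 24 weeks, Fosb and Jund, depended on single arrays and on the processing. Fosb had levels of -2.30 and -2.35 in HF24, -2.09 and -1.98 in C24, -2.73 and -2.86 in HF12, and -2.76 and -2.87 in C12. Both 24-week groups lay above both 12-week groups, which overlapped. Fosb was lower in HF24 than in C24 (-0.29 ± 0.08, adjusted p = 0.0367), a call lost without C24 replicate 1 (0.0635), C24 replicate 2 (0.148), HF24 replicate 1 (0.102) or HF24 replicate 2 (0.141). It was also lost with normexp (-0.14, adjusted p = 0.169), quantile normalization (-0.16, adjusted p = 0.208) and the authors' deposited table of values (-0.25, adjusted p = 0.0528), and in 10 of 18 alternatives in all. Jund was higher (0.33 ± 0.09, adjusted p = 0.0332), a call lost without C24 replicate 1 (0.14), HF24 replicate 1 (0.155), HF24 replicate 2 (0.0588) or either HF12 array (0.0618). It was also lost with quantile normalization (0.29, adjusted p = 0.0763) and with no filter on dim probes (adjusted p = 0.0777), and in 9 of 18 alternatives in all. Without C24 replicate 1, HF24 replicate 1 or HF24 replicate 2, 3 of the 10 genes passed, all lower. Junb (-0.32 ± 0.10, adjusted p = 0.0545), Fosl1 (-0.32 ± 0.12, adjusted p = 0.102) and Fosl2 (-0.18 ± 0.07, adjusted p = 0.0983) did not pass. Junb passed under 7 of 18 alternatives, among them normexp (-0.36), quantile normalization (-0.37) and the omission of either C12 array (-0.32). Fosl2 passed under 3 of 18 and Fosl1 under 1.

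In this comparison 7 keratinocyte genes had a median change of -3.06, with 6 lower and none higher in HF24. Their summed level was 4.54 to 4.76 in HF24, 10.7 to 11.1 in C24, 4.74 to 4.88 in HF12 and 4.11 to 4.33 in C12, so C24 was the high group for these markers as it was for Egr1 and Btg2. Of the 10 keratinocyte markers on the list, Krt15, Epcam and Cdh1 were not above background in C24. Dsp was not above background in HF24, HF12 or C12, so it was tested only because it was detected in C24. Macrophage markers differed as well, with 12 of 14 higher and 1 lower in HF24 and a median change of 1.18. Mesenchymal stromal markers were higher for 1 of 10 and lower for 2 (median -0.06). All 7 Schwann cell markers were lower (median -1.32), as were 7 of 9 muscle markers (median -1.87) and 7 of 10 mature adipocyte markers (median -0.58), while 5 of 8 endothelial markers were higher (median 0.33). The adipocyte markers Adipoq, Retn, Cfd and Lipe were not above background in HF24, nor was Lipe in C24. The muscle markers Pax7 and Ckm and the Schwann cell marker Cdh19 were not above background in HF24 either. Pax7 was also not above background in C24 or HF12, so it was tested only because it was detected in C12. The changes of these genes in every comparison that uses those groups are partly set by background. The part of these cell types in the changes of Egr1, Btg2 or Fos was not tested.

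The interaction asks whether the diet effect differed between 24 and 12 weeks: it is the change in HF24 against C24 minus the change in HF12 against C12. Of the 10 genes, 6 passed and all were negative, against 29.7% of all genes tested in either direction (12.7% positive and 16.9% negative). Atf3 had the largest interaction (-2.51 ± 0.07, adjusted p = 4.39e-05), followed by Fos (-1.97 ± 0.12, adjusted p = 2.05e-04), Egr1 (-1.27 ± 0.11, adjusted p = 6.51e-04) and Btg2 (-1.11 ± 0.13, adjusted p = 0.00206). The diet effect on Fos turned round, at -0.66 at 24 weeks and 1.31 at 12 weeks, each past the threshold. Egr1 and Btg2 passed at 24 weeks and not at 12 weeks, and Atf3 passed at 12 weeks and not at 24 weeks. Junb (-0.51 ± 0.14, adjusted p = 0.0383) and Jun (-0.39 ± 0.11, adjusted p = 0.0389) also passed. The Junb call was lost without any 1 of the HF24, C24 and HF12 arrays (adjusted p from 0.0697 to 0.112). The Jun call was lost without either HF24 array, C24 replicate 1, either HF12 array or C12 replicate 2 (adjusted p from 0.0856 to 0.113). Fosb (-0.31 ± 0.11, adjusted p = 0.0871), Fosl2 (-0.15 ± 0.10, adjusted p = 0.317), Jund (-0.14 ± 0.12, adjusted p = 0.435) and Fosl1 (-0.07 ± 0.18, adjusted p = 0.800) did not pass. Among 10 mesenchymal stromal markers, 1 had a positive interaction past the threshold and none a negative one (median 0.06). Markers of other cells had interactions too. All 14 macrophage markers (median -2.39) and all 7 Schwann cell markers (median -1.76) were negative and past the threshold, as were 6 of 7 keratinocyte markers (median -3.28) and 7 of 9 muscle markers (median -1.79). Positive interactions passed for 6 of 8 endothelial markers (median 0.71). Mature adipocyte markers passed as positive for 6 of 10 and as negative for 2 (median 1.82). Their part in the interactions of these genes was not tested.

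**Figure D2:**
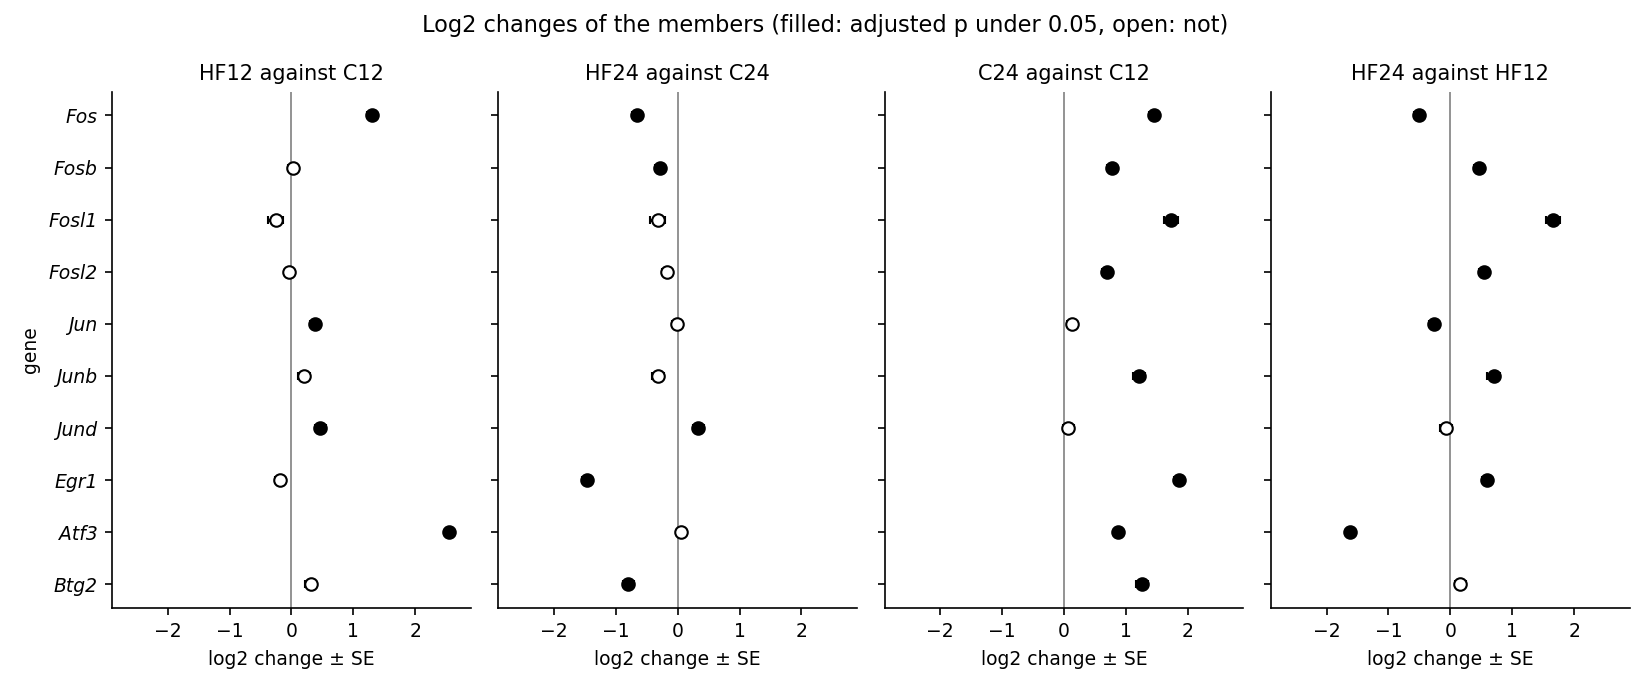
Log2 change of each gene (± standard error from limma, 2 arrays per group) in the 4 comparisons, with filled points for an adjusted p under 0.05. Fos lies right of 0 in HF12 against C12 (1.31) and left of 0 in HF24 against C24 (-0.66), and in C24 against C12 all 10 points lie right of 0.

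C24 against C12 compares the longer with the shorter feeding time on chow, and thus older with younger mice. Most of these genes were higher at 24 weeks: 8 of 10 passed, all higher, against 46.5% of all genes tested in either direction (24.5% higher and 22% lower). The median change was 1.04, against 0.02 over all genes. Egr1 changed most (1.86 ± 0.08, or 3.64-fold, adjusted p = 2.33e-05). Fosl1, which encodes FRA1, was next. Its levels were 0.12 and 0.04 in HF24, 0.28 and 0.52 in C24, -1.51 and -1.65 in HF12, and -1.46 and -1.20 in C12. The 24-week arrays all stood more than 1 unit above the 12-week arrays on either diet. Fosl1 was 3.32-fold higher in C24 than in C12 (1.73 ± 0.12, adjusted p = 1.73e-04).

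Fos was 2.75-fold higher in C24 than in C12 (1.46 ± 0.08, adjusted p = 7.81e-05), Btg2 2.40-fold (1.26 ± 0.09, adjusted p = 1.81e-04) and Atf3 1.83-fold (0.87 ± 0.05, adjusted p = 6.93e-05). Junb had levels of 4.50 and 4.58 in HF24, 4.85 and 4.86 in C24, 3.86 and 3.82 in HF12, and 3.78 and 3.50 in C12. C24 stood above HF24, and both lay above the 12-week groups. The change in C24 against C12 was 2.32-fold (1.21 ± 0.10, adjusted p = 2.79e-04). Fosl2, which encodes FRA2, had levels of 3.66 and 3.63 in HF24, 3.87 and 3.80 in C24, 3.03 and 3.19 in HF12, and 3.17 and 3.12 in C12. Its 12-week groups overlapped, and the 24-week groups were higher. Fosl2 rose by 0.69 ± 0.07 (adjusted p = 7.15e-04) and Fosb by 0.78 ± 0.08 (adjusted p = 6.42e-04) in C24 against C12. Jun (0.13 ± 0.08, adjusted p = 0.203) and Jund (0.07 ± 0.09, adjusted p = 0.535) did not pass, and their arrays overlapped between the groups. The same 24-week chow arrays were also the chow side of the diet comparison at 24 weeks, so a high C24 level enters both comparisons. Mesenchymal stromal markers were higher for 4 of 10 and lower for 1 in C24 against C12 (median 0.16). Markers of other cells moved in C24 against C12 as well. Macrophage markers were higher for 13 of 14 (median 2.21), keratinocyte markers for 6 of 7 (median 3.63), endothelial markers for 7 of 8 (median 0.92) and Schwann cell markers for 5 of 7 (median 0.55). Mature adipocyte markers were lower for 9 of 10 (median -5.68) and muscle markers for 8 of 9 (median -1.21). Of the muscle markers, Pax7 was tested only because it was detected in C12, so its change is partly set by background. Their part in the changes of the 8 genes was not tested.

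On the high-fat diet the genes went both ways between 24 and 12 weeks. Of the 10 genes, 5 were higher and 3 lower in HF24 than in HF12, against 46.6% of all genes tested in either direction (21.1% higher and 25.5% lower). The median change was 0.31, against -0.03 over all genes. Fosl1 was 3.17-fold higher (1.66 ± 0.12, adjusted p = 2.63e-04), Junb 1.62-fold (0.70 ± 0.10, adjusted p = 0.0026) and Egr1 1.51-fold (0.59 ± 0.08, adjusted p = 0.00181). Fosl2 (0.54 ± 0.07, adjusted p = 0.00205) and Fosb (0.47 ± 0.08, adjusted p = 0.00481) were also higher. Atf3 was 3.10-fold lower in HF24 than in HF12 (-1.63 ± 0.05, adjusted p = 1.19e-05), and Fos was 1.43-fold lower (-0.51 ± 0.08, adjusted p = 0.0047). Jun was lower by a small amount (-0.26 ± 0.08, adjusted p = 0.0335), a call lost without any 1 of the HF24 and HF12 arrays (adjusted p from 0.093 to 0.134). Btg2 (0.16 ± 0.09, adjusted p = 0.212) and Jund (-0.07 ± 0.09, adjusted p = 0.558) did not pass. Among the markers, 10 of 14 macrophage genes were lower and 3 higher (median -0.34), 9 of 10 mature adipocyte genes lower (median -2.67), 8 of 9 muscle genes lower (median -2.97) and 6 of 7 Schwann cell genes lower (median -1.21). Mesenchymal stromal markers were higher for 7 of 10 and lower for none (median 0.3). Endothelial markers were higher for 7 of 8 (median 1.36), and keratinocyte markers were higher for 4 of 7 and lower for 2 (median 0.81). Their part in the changes of these genes was not tested.

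The groups therefore ranked differently from gene to gene. From high to low mean level, Fosb, Junb and Btg2 ran C24, HF24, HF12, C12, and Fosl1, Fosl2 and Egr1 ran C24, HF24, C12, HF12. Fos ran C24, HF12, HF24, C12. Atf3 and Jund ran HF12, HF24, C24, C12, and Jun ran HF12, C24, HF24, C12. The summed macrophage markers ran in the same order, at 192 to 196 in HF24 and 98.0 to 102 in C24. Between HF24 and C24, Atf3 differed by 0.05 ± 0.05 and did not pass. The part of macrophages in the levels of Atf3 and Jund was not tested. Neighbours in these orders whose arrays overlapped were HF12 and C12 for Fosb and Fosl2, HF24 and HF12 for Btg2 and Jund, C24 and C12 for Jund, and HF24 and C24 for Jun. The span of the 4 group means was largest for Atf3 (5.88-fold) and Egr1 (4.16-fold), followed by Fosl1 (3.95-fold), Fos (2.75-fold), Btg2 (2.40-fold) and Junb (2.32-fold). Fosb (1.72-fold), Fosl2 (1.65-fold), Jund (1.38-fold) and Jun (1.30-fold) had the smaller spans. With each profile centred on its own mean over the 8 arrays, Fosb and Fosl2 were the closest pair, differing by a root mean square of 0.10, and Jun and Jund came next at 0.17. Atf3 stood furthest from Fosl1 (1.45) and Egr1 (1.37).

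For 5 genes a second probe was present. Both Btg2 probes passed in HF24 against C24 (-0.72 ± 0.08 on the second) and in C24 against C12 (0.98 ± 0.08 on the second), with the same direction. The second Junb probe gave 1.54 ± 0.14 in C24 against C12 and 0.72 ± 0.14 in HF24 against HF12, both past the threshold. In HF12 against C12 the Junb probes parted: the second passed (0.63 ± 0.14, adjusted p = 0.0184) while the one that stands for the gene did not. The second Jund probe did not pass for diet at 12 weeks (0.22 ± 0.12, adjusted p = 0.230) or at 24 weeks (0.27 ± 0.12, adjusted p = 0.144). The Jund diet calls therefore rest on 1 of 2 probes. On the second probe the C24 arrays (3.63 to 3.97) overlapped the HF12 arrays (3.86 to 3.94), and HF24 had the highest mean (4.07). The second Fosl2 probe, the dimmer one, passed in C24 against C12 (0.81 ± 0.16, adjusted p = 0.0079) and did not in HF24 against HF12 (0.36 ± 0.16, adjusted p = 0.114). The second Fosb probe was not well above background on any array and was not tested.

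Related genes were taken from lists, each read against the background shares given above for its comparison. Among 16 other immediate early transcription factor genes, 11 were higher and none lower in C24 than in C12, with a median of 0.79. They included the orphan receptor gene Nr4a1 (2.22 ± 0.07), Ier2 (1.74 ± 0.07) and Myc (1.40 ± 0.07). In HF24 against HF12, 11 were higher and none lower (median 0.58), again with Nr4a1 (2.15 ± 0.07) first. In HF24 against C24 none of the 16 was higher and 5 were lower, near the share of all genes called there (33.1%), with Ier2 (-0.84 ± 0.07), Egr2 (-1.23 ± 0.11), a relative of Egr1, and Nr4a1 (-0.57 ± 0.07). In HF12 against C12, 2 were higher and 4 lower, near the 31.3% of all genes.

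Of 34 immediate early effector and feedback genes, 27 were higher and 1 lower in C24 than in C12 (median 0.70), among them the prostaglandin synthase gene Ptgs2 (2.64 ± 0.09), the kinase gene Plk2 (2.30 ± 0.08) and the EGF receptor inhibitor gene Errfi1 (2.26 ± 0.08). In HF24 against HF12, 26 were higher and 3 lower (median 0.57). In HF24 against C24, 3 were higher and 16 lower (median -0.19), with the neuronal immediate early gene Arc (-2.11 ± 0.07) first. In HF12 against C12 the list went both ways, with 9 higher and 12 lower. Among 20 upstream kinases and serum response factor genes, Srf, which drives Fos and Egr1 transcription, was higher in C24 than in C12 (1.16 ± 0.05) and in HF24 than in HF12 (0.72 ± 0.05). The list as a whole had 8 higher and 2 lower in C24 against C12, near the 46.5% of all genes called there. In HF24 against HF12, 6 were higher and none lower, below the 46.6% of all genes. For diet, 5 were higher and none lower in HF12 against C12, and 3 higher and 1 lower in HF24 against C24. Both diet counts were below the shares of all genes (31.3% and 33.1%).

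Dimer partners of AP-1 differed with diet at 12 weeks. Of 19 measured, 9 were higher and none lower in HF12 than in C12 (median 0.18), among them the leukocyte-enriched genes Batf (2.24 ± 0.06) and Batf3 (1.83 ± 0.07). In HF24 against C24, 3 were higher and 1 lower, below the 33.1% of all genes called there. In HF24 against HF12, 5 were higher and 4 lower, near the 46.6% of all genes, with Batf3 (-0.96 ± 0.07) lower. In C24 against C12, 10 were higher and 1 lower (median 0.35). Among 21 AP-1 target genes, 13 were higher and 2 lower in C24 than in C12 (median 0.56). They included the keratin gene Krt14 (5.57 ± 0.20), also a keratinocyte marker, the urokinase receptor gene Plaur (1.58 ± 0.07) and the chemokine gene Ccl2 (1.22 ± 0.06). In HF24 against HF12, 11 were higher and 2 lower, with Il6 (1.68 ± 0.09) higher and the osteopontin gene Spp1 (-1.57 ± 0.05) lower. The diet comparisons split the targets, with 6 higher and 6 lower at 12 weeks and 4 higher and 5 lower at 24 weeks.

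Counts for p53 targets, relatives of Btg2 and heat shock genes were taken in the same way. Of 14 p53 target genes, a list given here because p53 induces Btg2, 2 were higher and 7 lower in C24 than in C12, and none was higher and 10 lower in HF24 than in HF12 (medians -0.23 and -0.44). In HF24 against C24, 1 was higher and 7 lower, and in HF12 against C12, 4 were higher and 2 lower. Of the 4 relatives of Btg2, Tob1 was lower in C24 than in C12 (-1.03 ± 0.08) and Btg3 higher (0.35 ± 0.11). In HF12 against C12, 2 of the 4 were lower and none higher, in HF24 against HF12, 1 was higher and none lower, and in HF24 against C24 none passed. Heat shock genes had 5 of 10 higher and none lower in C24 against C12, near the 46.5% of all genes called there. In HF24 against HF12, 6 were higher and none lower, against 46.6% of all genes. For diet, 1 was higher and 1 lower at 12 weeks, and 1 higher and none lower at 24 weeks. Both diet counts were below the shares of all genes (31.3% and 33.1%).

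**Figure D3:**
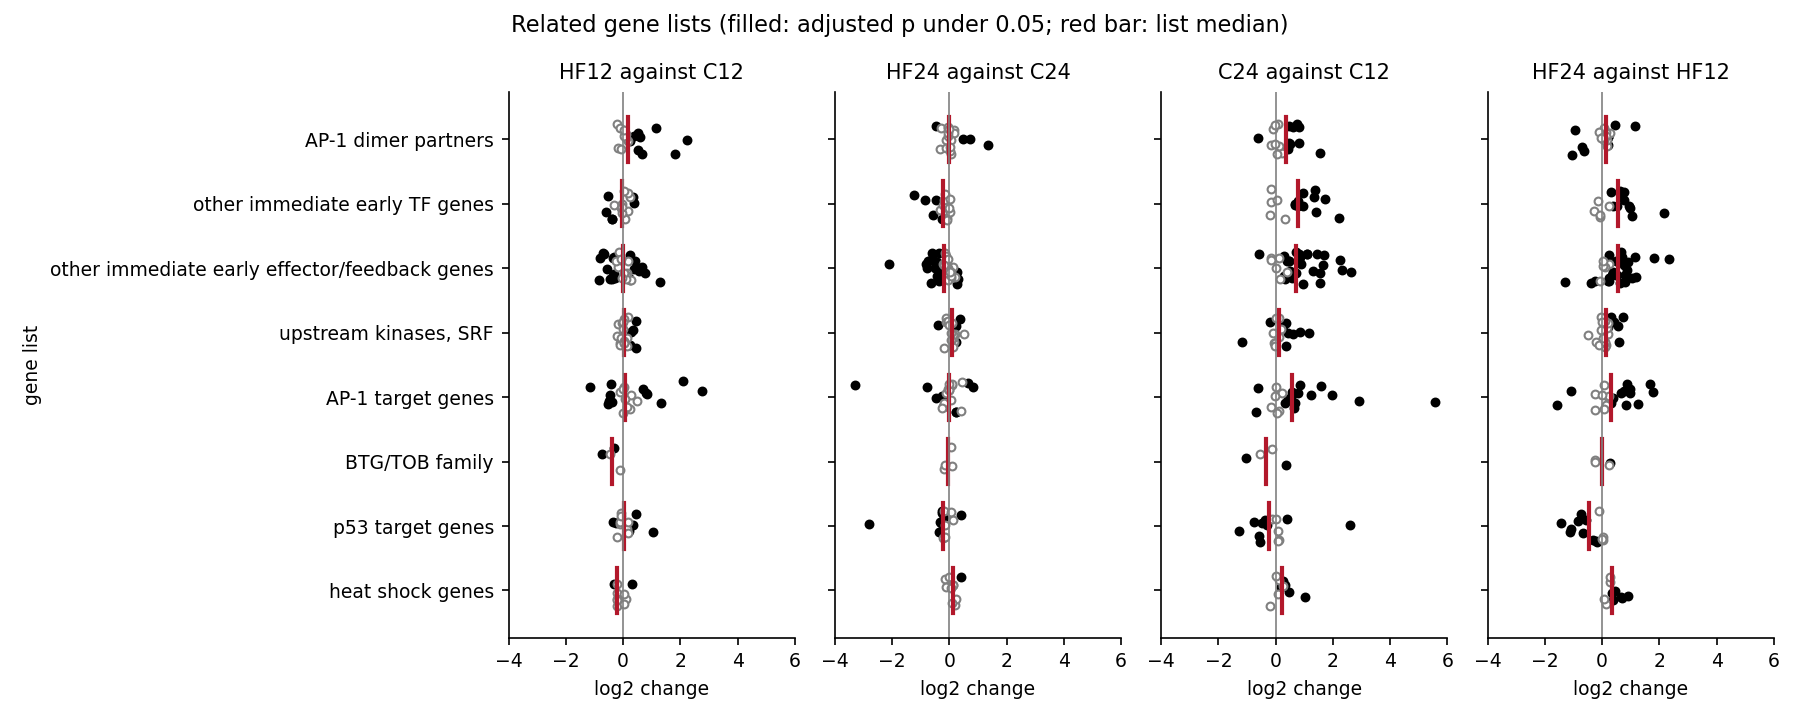
Log2 change of each gene (dots, filled where the adjusted p was under 0.05) in 8 related lists, with the list median in red, for the 4 comparisons. The immediate early lists lie mostly right of 0 in C24 against C12 (medians 0.79 and 0.70) and in HF24 against HF12 (medians 0.58 and 0.57), and near 0 or left of it in the diet comparisons.

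The genes whose profiles lay closest to each of the 6 members spanning at least 1 log2 unit were found over the 8 arrays among 16731 other named genes. The measure was the root mean square difference between centred profiles, in log2 units. Nearest to Atf3 were Armc3 (0.05), Atp6v0d2 (0.11) and Slc13a2 (0.14). Armc3 averaged -3.70 in HF24, -3.70 in C24, -2.06 in HF12 and -4.66 in C12. Nearest to Fos were Ifitm6 (0.13), Itih2 (0.16) and Pgr (0.16). For Egr1 the nearest were Krt6a (0.19), Slc14a1 (0.19) and S100a14 (0.20), and the keratin gene Krt6a averaged -0.79 in HF24, 0.62 in C24, -1.02 in HF12 and -1.15 in C12. Fosl1 lay next to Nfkbiz (0.10), Tinagl1 (0.15) and Rnf165 (0.15), Junb next to Slc7a1 (0.08), Isg20 (0.08) and Gm30178 (0.09), and Btg2 next to Pou2af1 (0.11), Arntl (0.12) and Ly6k (0.12). Slc14a1, Slc13a2 and Pou2af1 were well above background on 3, 2 and 4 of the 8 arrays, so their profiles are partly set by background.

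**Figure D4:**
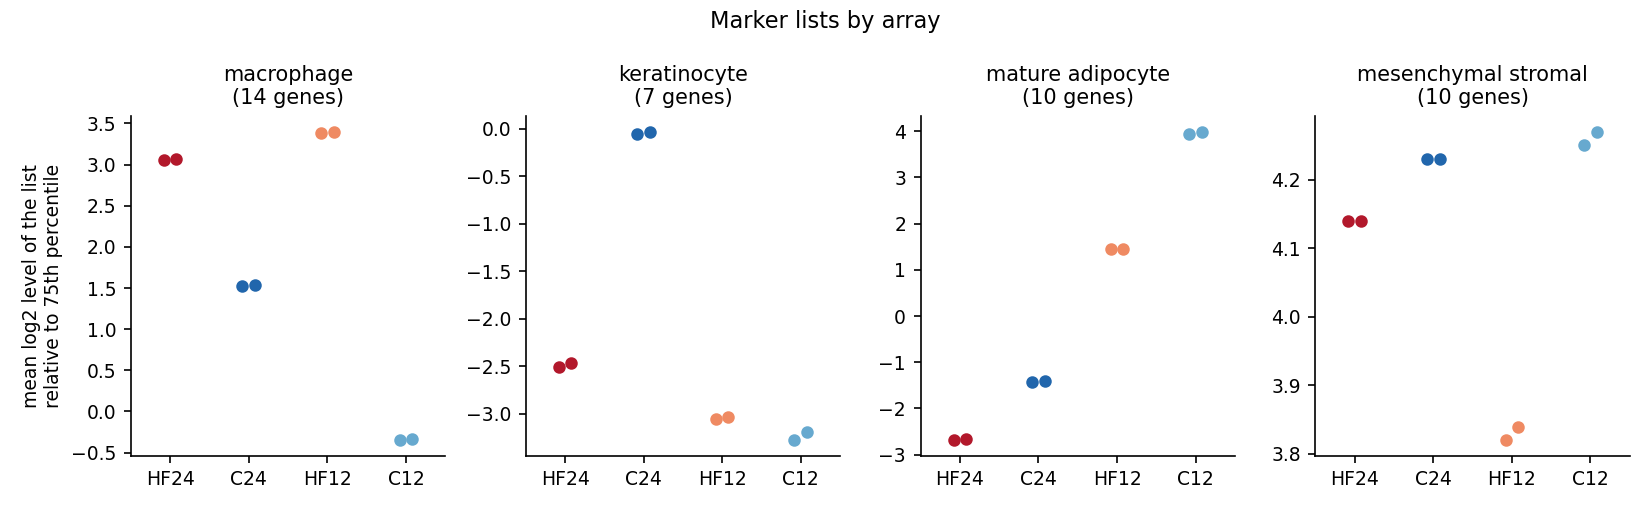
Mean log2 level of 4 marker lists relative to the 75th percentile of the array, with a dot for each array and a scale of its own for each panel. Macrophage markers run from high to low as HF12, HF24, C24 and C12, keratinocyte markers are highest in C24, mature adipocyte markers are lowest in HF24 and highest in C12, and mesenchymal stromal markers stay between 3.82 and 4.27 on all arrays.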

How the data were processed

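Total RNA of the cultured cells was labelled with Cy3 and hybridised to Agilent 8x60K mouse arrays, 1 per sample, 8 in all. Per the file headers, the deposited processed intensity is the background-subtracted, spatially detrended brightness of a spot from Agilent Feature Extraction 11.0.1.1, and it is not normalized across arrays; the median and local background intensities deposited with it are raw scanner values. The authors' deposited value table holds log2 values, which differ from log2 processed intensity by an offset of -9.99 to -9.79 that is fixed within an array; genes are not centred, and column medians run from -1.44 to -1.33; the rule behind the constant is not given in the sources used here.

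Control and outlier spots were left out, and log2 values of repeated spots were averaged. Of 56605 non-control probes, 192 had no spot left on at least 1 array and were dropped. The 75th percentile over the non-control spots of the same array was subtracted. Accessions were matched to symbols of GRCm38.p6, which named 32907 probes (58.3%); the headers name another build, so only promoter coordinates of that table are given. Probes well above background on both arrays of at least 1 group were kept (37649), and the brightest stood for its gene. limma 3.58.1 (R 4.3.3) was fitted to the 8 arrays together with a mean for each group, giving 4 residual and 1.87 prior degrees of freedom; tests were two-sided. Precision is limited by the number of arrays. The members, lists and tests were chosen with earlier results of these data known. All 10 members were eligible to be named, with up to 3 called genes per list and comparison by smallest adjusted p, and the 3 nearest profiles; marker genes named only as undetected fall outside that rule. Normexp was run on the median signal. The fit was tested on simulated data. Python 3.11.15, pandas 2.3.3 and matplotlib 3.10.9 were used. Alternatives are given at the end.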

Additional observations from a re-analysis of the deposited data

Results flagged for a closer look

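The diet effect differed between the feeding times by a test of the interaction for 6 of the 10 genes. The change in HF24 against C24 minus the change in HF12 against C12 was -2.51 for Atf3, -1.97 for Fos, -1.27 for Egr1, -1.11 for Btg2, -0.51 for Junb and -0.39 for Jun on the log2 scale, with adjusted p from limma of 4.39e-05, 2.05e-04, 6.51e-04, 0.00206, 0.0383 and 0.0389 in that order. For Fos both arrays of HF24 lay below both arrays of C24, and both arrays of HF12 above both arrays of C12.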

How the results depend on the processing

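The 10 genes were refitted under 18 alternatives in each comparison of groups and 17 for the interaction. Of 31 calls, 24 passed under every alternative and 7 were lost under at least 1, and no call changed sign. The 5 Fos calls and every call for Atf3, Egr1, Btg2, Fosl1 and Fosl2 were among the 24. Of 19 values that did not pass, 6 passed under some alternative. The count of called genes for HF24 against C24, 5 as reported, was 3 without a filter on dim probes (all lower), 3 with the replicate block (all lower) and 8 with an intensity trend in the variance (1 higher and 7 lower), and 3 to 6 when each array was left out. The count for HF12 against C12, 4 as reported, was 2 to 4 when each array was left out, and 6 (5 higher and 1 lower, Egr1) both with normexp and with the intensity trend. The count over all genes for HF12 against C12, 9263, fell to 5440 and 5825 when HF12 replicate 1 or 2 was left out, and to 6077 without C12 replicate 1. With no filter on dim probes, calls in C24 against C12 were 13193 higher and 6295 lower, against 7262 and 6496, and in HF24 against HF12 12666 and 7298, against 6247 and 7547. The cause of these differences was not tested.

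Small changes that did not pass changed sign. With each array left out in turn, Fosb in HF12 against C12 ran from -0.04 to 0.09 (negative without HF12 replicate 1 or C12 replicate 2) and Fosl2 from -0.11 to 0.04 (positive without HF12 replicate 1). Jun in HF24 against C24 was 0.02 with the authors' value table, 0.02 with the 75th percentile over probes, an alternative added after seeing the data, and -0.09 to 0.06 with each array left out (not negative without HF24 replicate 1 or C24 replicate 1). Jund in C24 against C12 was -0.01 with normexp and -0.02 to 0.16 with each array left out (negative without C24 replicate 2). The Fosl1 interaction was -0.20 to 0.06 with each array left out (not negative without C24 replicate 2, HF12 replicate 1 or C12 replicate 1). The labels number the replicates but do not say that they pair; deviations of same-numbered arrays correlated across genes between -0.08 and 0.17, so the numbers were not taken as pairs. The replicate block also removed the calls for Fosb (adjusted p = 0.0576) and Jund (0.0574) in HF24 against C24, Jun in HF24 against HF12 (0.0505), and Jun (0.0606) and Junb (0.0594) in the interaction.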
